A study of Homo sapiens with 12 samples.

Results

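The 10 genes of retinoid metabolism and retinoic acid signalling described here were DHRS3, RDH10, ALDH1A1, ALDH1A3, CRABP2, RARA, RARB, RARG, CYP26A1 and CYP26B1. They were taken as a list of symbols from the 37247 genes of each deposited table, and all 10 had a row. The list was chosen by its known place in the pathway with the measured TPM of treated against parent cells already in view, so the differences of these genes in that contrast are a description, without p-values. The RNA came from 2 human cancer cell lines in which the receptor tyrosine kinase RET is rearranged. LC-2/ad derives from an adenocarcinoma of the lung, and TPC-1 derives from a papillary carcinoma of the thyroid. Selpercatinib is a small-molecule inhibitor of RET. The 4 groups were LC-2/ad cells given 100 nM selpercatinib for 48 h, LC-2/ad parent cells, TPC-1 cells given the same dose for the same time, and TPC-1 parent cells, with 3 libraries each. Parent cells are labelled as having no treatment, and whether they were given the drug's solvent is not stated. Each line comes from a single tumour, and no source says that the libraries of a group were grown as separate cultures, so the spread between them may be technical.

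Retinoic acid is made from vitamin A in a pair of oxidation steps. Retinol is oxidised to retinaldehyde, a reversible step in which RDH10 works in the forward direction and DHRS3 in reverse, and retinaldehyde is oxidised to retinoic acid by the ALDH1A enzymes. Retinoic acid then binds the nuclear receptors RARA, RARB and RARG, which sit on DNA as dimers with a retinoid X receptor, and it is broken down by CYP26 hydroxylases. Retinoids are known for their part in lung branching and airway differentiation, and retinoic acid has been studied as a differentiating agent in thyroid carcinoma.

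RARB and CYP26A1 are textbook targets of retinoic acid, each with a response element close to the start of transcription. Their start regions are printed because they were the only windows of these genes in which that element was found. The search used a half-site written AGGTCA, or else AGTTCA, or else GGGTCA, or else GGTTCA, as direct repeats with a gap of 1, 2 or 5 bases (DR1, DR2, DR5), on both strands, in RefSeq windows on GRCh38.p14 that run from 250 bases before a start to 50 bases after it. The table held 17 windows for 9 of the 10 genes, and 2 of the 17 held a repeat, in both cases a DR5 (in capitals).
RARB, chr3:25428013-25428312, plus strand: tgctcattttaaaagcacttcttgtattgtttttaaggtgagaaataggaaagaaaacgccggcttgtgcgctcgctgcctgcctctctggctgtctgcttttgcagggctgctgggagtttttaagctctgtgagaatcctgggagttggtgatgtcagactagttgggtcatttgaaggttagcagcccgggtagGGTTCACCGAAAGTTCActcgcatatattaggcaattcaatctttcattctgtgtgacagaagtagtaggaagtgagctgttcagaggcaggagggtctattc
CYP26A1, chr10:93073643-93073942, plus strand: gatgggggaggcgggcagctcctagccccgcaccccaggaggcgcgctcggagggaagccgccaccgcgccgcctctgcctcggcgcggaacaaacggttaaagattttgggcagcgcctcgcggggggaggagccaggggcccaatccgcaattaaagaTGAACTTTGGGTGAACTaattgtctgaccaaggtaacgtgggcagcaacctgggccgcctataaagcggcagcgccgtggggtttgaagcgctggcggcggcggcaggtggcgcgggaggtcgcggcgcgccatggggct
In RARB the repeat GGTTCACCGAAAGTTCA lay on the plus strand at positions -53 to -37, counted from the start. In CYP26A1 it lay on the minus strand at -90 to -74, where it reads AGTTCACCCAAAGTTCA. A DR5 of this spelling was present in 0.0883% of all 35116 windows in the table, and any of the 3 repeats in 0.259%. The match is a description of letters, and binding was not measured.

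Values are TPM, a transcript abundance scaled for gene length and to a fixed total per library. They carry no read count, so sequencing depth is not known, and less RNA of a gene per cell cannot be told apart from fewer cells that express it. Differences are given as log2 fold changes of TPM + 1, treated minus parent, from limma fits over all genes with a mean of at least 1 TPM in a line. The threshold is a Benjamini-Hochberg adjusted p of 0.05 over all genes fitted. Between 12554 and 14336 genes reached 1 TPM in each library. Transcripts of mitochondrial DNA took 14.56% ± 0.49 of the TPM in treated LC-2/ad cells and 9.77% ± 0.05 in LC-2/ad parent cells (SD, n = 3 each). They took 6.32% ± 0.5 in treated TPC-1 cells and 6.98% ± 0.58 in TPC-1 parent cells. TPC-1 parent library 1 stood apart from its group, at -4.9 on the first principal component of that line (38.4% of the variance) when parent libraries 2 and 3 were at -23.3 and -17.7, so TPC-1 values are also given without it. LC-2/ad expressed the lung markers NKX2-1, NAPSA and SLC34A2, while SFTPC was listed at 0 in every library and SFTPB stayed under 1 TPM on average. TPC-1 expressed the thyroid factors PAX8 and FOXE1, but TG and TSHR averaged below 1 TPM in each group, as did the epithelial marker CDH1. The summed level of 10 blood, endothelial and fibroblast markers was 45.82 to 51.91 TPM in treated and 41.6 to 47.86 TPM in parent LC-2/ad cells, with 4 and 3 of the 10 at 1 TPM or more. It was 44.79 to 56.06 TPM in treated and 46.45 to 48.03 TPM in parent TPC-1 cells, with 2 of the 10 at that level in each group. The leukocyte marker PTPRC, the T-cell marker CD3E and the fibroblast marker COL3A1 averaged below 1 TPM in each of the 4 groups. In LC-2/ad the treated libraries were all higher for the endothelial marker CDH5 (3.63 TPM in treated and 2.07 TPM in parent cells, means) and the fibroblast marker LUM (2.12 TPM in treated and 0.495 TPM in parent cells), and all lower for the macrophage marker CD68 (6.38 TPM in treated and 9.004 TPM in parent cells) and the endothelial marker PECAM1 (0.244 TPM in treated and 0.738 TPM in parent cells). The fibroblast marker COL1A1, the most abundant of the 10 there, overlapped at 36.2 TPM in treated and 31.4 TPM in parent cells. Markers of the lines themselves also differed. The summed level of 5 epithelial markers was 3935 to 4010 TPM in treated and 5402 to 5563 TPM in parent LC-2/ad cells, and 2446 to 2472 TPM in treated and 2828 to 3148 TPM in parent TPC-1 cells. KRT8 averaged 1073 TPM in treated and 1709 TPM in parent LC-2/ad cells. There EPCAM, KRT18 and KRT19 were also lower in all treated libraries, while CDH1 overlapped (189.8 TPM in treated and 168.5 TPM in parent cells). Of the LC-2/ad lung markers, NKX2-1 was higher (140.4 TPM in treated and 109.8 TPM in parent cells). SLC34A2 was lower (250.7 TPM in treated and 300.3 TPM in parent cells) and NAPSA overlapped. The thyroid factor FOXE1 averaged 36.2 TPM in treated and 11.6 TPM in parent LC-2/ad cells, and overlapped in TPC-1. PAX8 averaged 21.9 TPM in treated and 14.8 TPM in parent LC-2/ad cells, and 271.4 TPM in treated and 190.0 TPM in parent TPC-1 cells. The part of these markers in the results was not tested.

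The lines carried different sets of these genes before any drug (the plot of TPM per library). In LC-2/ad parent cells the levels per length ran, from high to low, CRABP2, ALDH1A3, DHRS3, RARG, RARA, RDH10, RARB, ALDH1A1, CYP26B1 and CYP26A1. Among neighbours in that order, only RARB and ALDH1A1 had ranges that overlapped. In TPC-1 parent cells the order was ALDH1A3, CRABP2, RARA, RDH10, RARG, CYP26B1, DHRS3, ALDH1A1, RARB and CYP26A1, with overlap between ALDH1A3 and CRABP2, between CYP26B1 and DHRS3, and between ALDH1A1 and RARB. After treatment the LC-2/ad order stayed the same, and CRABP2 and ALDH1A3 came to overlap. In treated TPC-1 cells RDH10 stood above RARA, CYP26B1 above RARG and RARB above ALDH1A1, with ranges that overlapped within the last 2 pairs, and DHRS3 no longer overlapped with CYP26B1. The levels of the lines come from separate tables and are set side by side without a test.

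**Figure D1:**
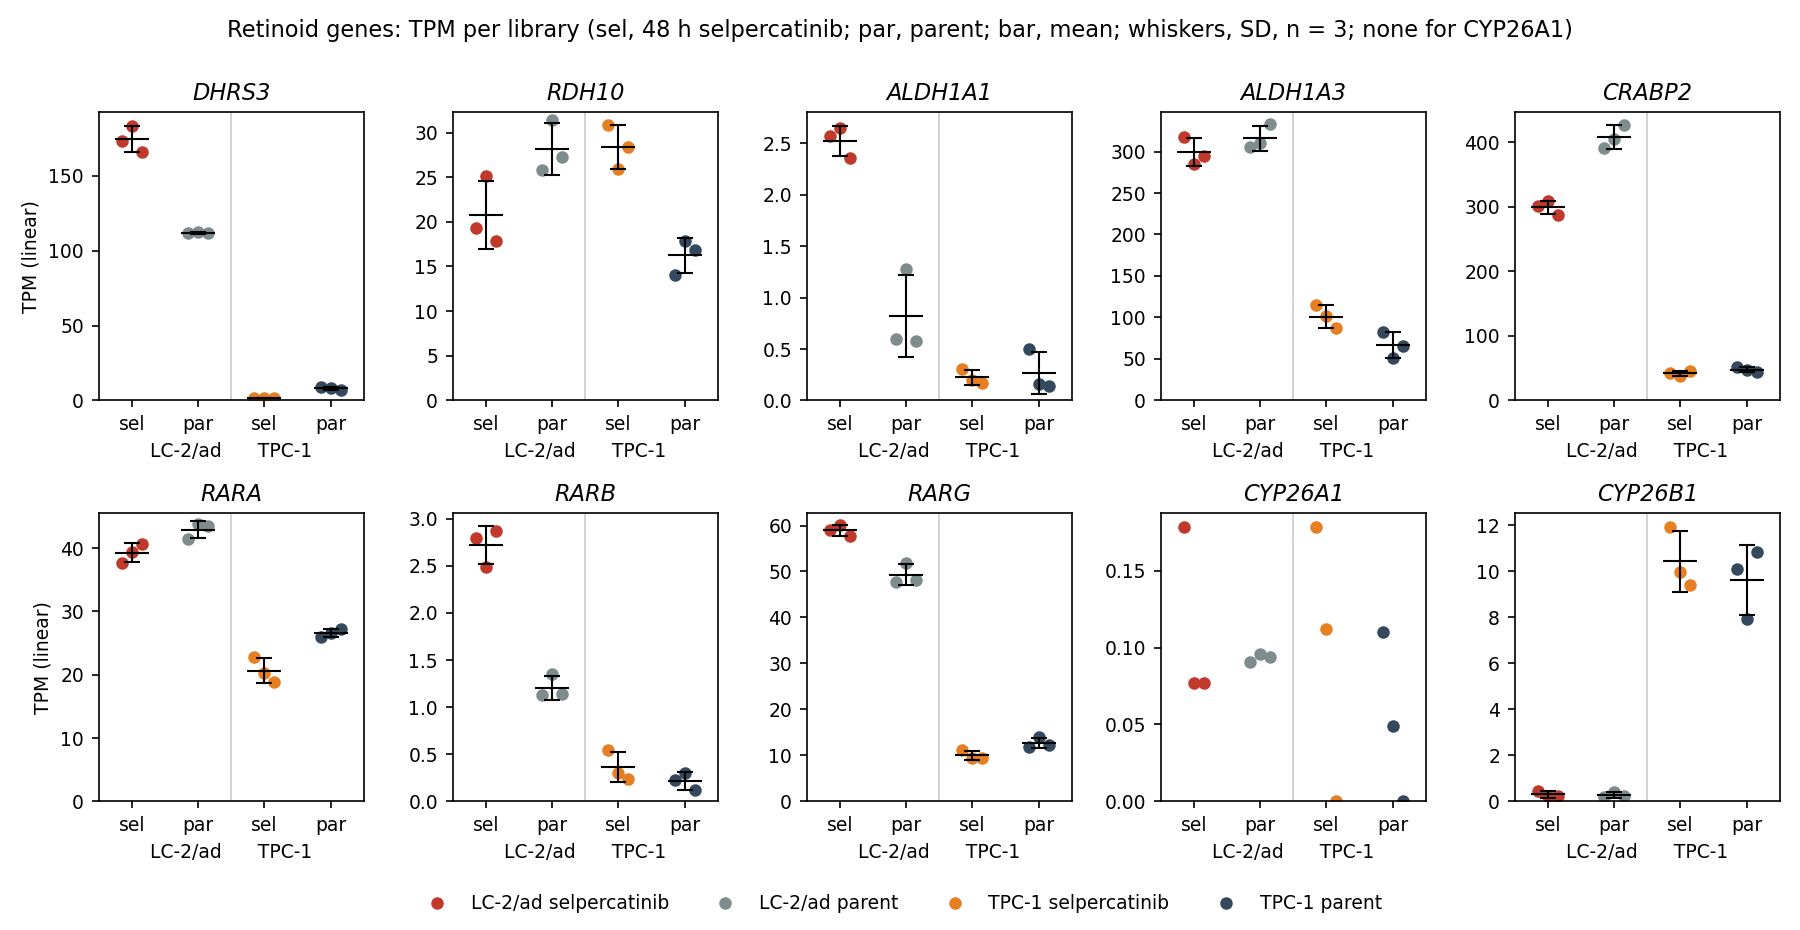
TPM per library on a linear axis for the 10 genes, with treated libraries left of parent libraries in each line; bars are means and whiskers SD (n = 3), left out for CYP26A1, which is listed at 0 in some libraries. DHRS3 stands at 173.4, 183.4 and 166.0 TPM in treated LC-2/ad cells and 111.9, 112.7 and 111.5 TPM in parent LC-2/ad cells, and below 9 TPM in every TPC-1 library.

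The pair that interconverts retinol and retinaldehyde differed in opposite directions in the lines. DHRS3 (ENSG00000162496, chr1:12567910-12617731, minus strand, GENCODE 29 on GRCh38) encodes a microsomal reductase that returns retinaldehyde to retinol, and it is itself known to be induced by retinoic acid. DHRS3 had 173.4, 183.4 and 166.0 TPM in treated LC-2/ad cells and 111.9, 112.7 and 111.5 TPM in parent LC-2/ad cells. Every treated library was above every parent library, the treated mean was 1.56 times the parent mean, and the log2 fold change of TPM + 1 was 0.63 ± 0.04 (SE). In TPC-1, DHRS3 had 1.756, 1.732 and 1.386 TPM in treated cells and 8.672, 8.224 and 6.997 TPM in parent cells. There every treated library was below every parent library, the treated mean was 0.204 times the parent mean, and the log2 fold change was -1.77 ± 0.14, or -1.71 ± 0.17 without parent library 1. At these low levels it depended on the pseudocount, at -2.23 with 0.1 and -0.97 with 5. Under each of these it was the largest difference in size of the 7 fitted genes in TPC-1, in the direction opposite to that in LC-2/ad.

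RDH10 (ENSG00000121039, chr8:73294612-73325281, plus strand) encodes the retinol dehydrogenase of the forward step, which in mouse embryos is needed for retinoic acid synthesis. RDH10 had 19.32, 25.13 and 17.89 TPM in treated LC-2/ad cells and 25.84, 31.43 and 27.31 TPM in parent LC-2/ad cells. The groups were separated by less than 1 TPM, between treated library 2 and parent library 1, and the log2 fold change was -0.43 ± 0.13. With single libraries left out it ran from -0.57 (without treated library 2) to -0.34 (without treated library 3). In TPC-1, RDH10 had 30.87, 25.91 and 28.43 TPM in treated cells and 14.08, 17.83 and 16.9 TPM in parent cells. All treated libraries were higher, by 0.77 ± 0.11 on the log2 scale (0.68 ± 0.10 without parent library 1), a ratio of means of 1.75.

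Within a library, the ratio of RDH10 to DHRS3 brings these differences together (the plot of the ratio and of the receptors). It was 0.119 ± 0.016 in treated and 0.252 ± 0.025 in parent LC-2/ad cells (SD, n = 3 each). In TPC-1 it was 17.7 ± 2.78 in treated and 2.07 ± 0.41 in parent cells. The reductase transcript was therefore the more abundant of the pair in every LC-2/ad library and the dehydrogenase transcript in every TPC-1 library. The ratio was lower in all treated libraries of LC-2/ad, with ranges of 0.108 to 0.137 in treated and 0.231 to 0.279 in parent cells. It was higher in all treated libraries of TPC-1, with ranges of 14.96 to 20.5 in treated and 1.62 to 2.42 in parent cells.

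**Figure D2:**
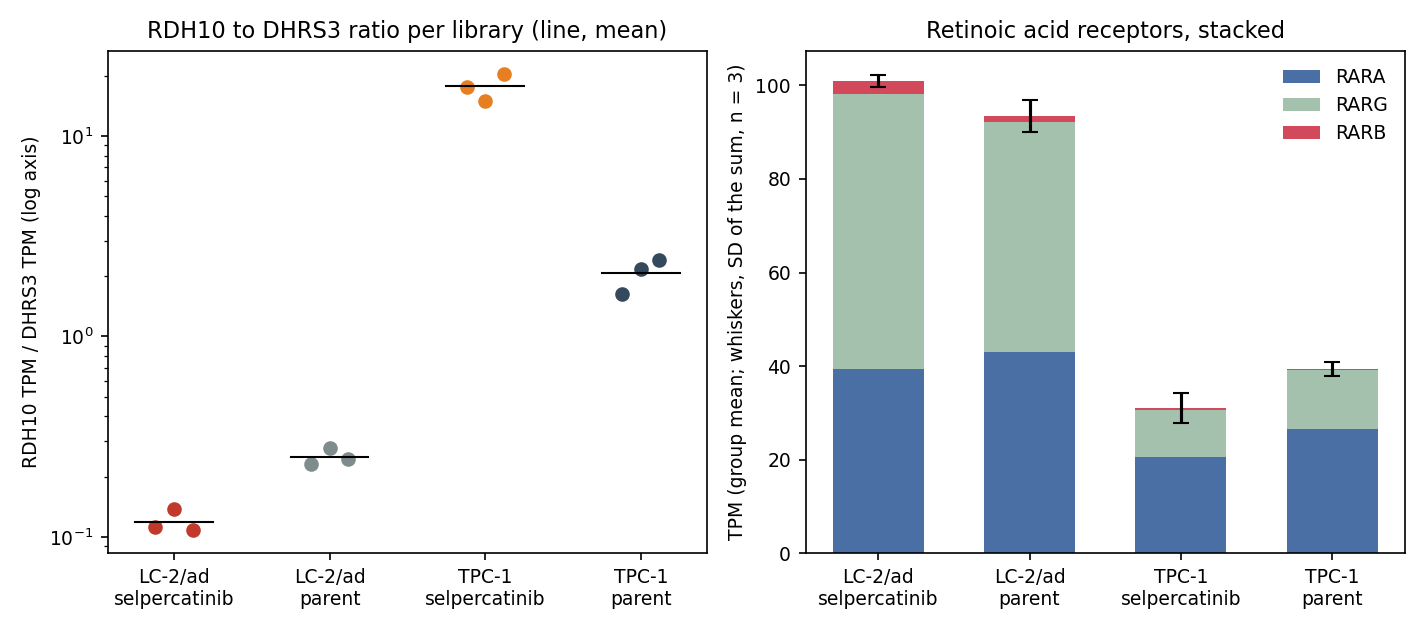
Left, the ratio of RDH10 to DHRS3 TPM in each library on a log axis, with the group mean as a line; right, group mean TPM of RARA, RARG and RARB stacked, with the SD of their sum as whiskers (n = 3). The ratio is 0.108 to 0.137 in treated and 0.231 to 0.279 in parent LC-2/ad cells, and 14.96 to 20.5 in treated and 1.62 to 2.42 in parent TPC-1 cells.

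Of the retinaldehyde dehydrogenases in this set, ALDH1A3 was far above ALDH1A1 in every library. ALDH1A3 (ENSG00000184254, chr15:100877714-100916626, plus strand) had 317.4, 285.2 and 295.1 TPM in treated LC-2/ad cells and 305.2, 310.0 and 333.4 TPM in parent LC-2/ad cells. These groups overlapped, with a log2 fold change of -0.08 ± 0.05 (-0.18 with median-of-ratios scaling). In TPC-1 it had 114.6, 101.7 and 86.72 TPM in treated cells and 82.47, 51.44 and 64.99 TPM in parent cells. All treated libraries were higher there, but the SD within a group was 14.0 TPM for treated and 15.6 TPM for parent cells. The log2 fold change was 0.62 ± 0.16, and 0.79 ± 0.13 without parent library 1.

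ALDH1A1 (ENSG00000165092, chr9:72900662-73080442, minus strand), often used as a marker of stem-like tumour cells, was low in every group. It had 2.569, 2.649 and 2.361 TPM in treated LC-2/ad cells and 0.597, 1.28 and 0.583 TPM in parent LC-2/ad cells. The treated libraries were all higher, the ratio of means was 3.08, and the log2 fold change was 0.98 ± 0.19. With a pseudocount of 0.1 in place of 1 the fold change was 1.59 on the log2 scale, since a pseudocount shrinks the change of a low gene. ALDH1A1 came over the minimum mean of 1 TPM only through the treated libraries. In TPC-1 it had 0.309, 0.203 and 0.165 TPM in treated and 0.499, 0.159 and 0.144 TPM in parent cells, overlapping groups below that minimum. The excess of ALDH1A3 over ALDH1A1 in LC-2/ad was 107.7 to 125.0 times in treated libraries and 242.5 to 572.3 times in parent libraries, ranges that did not meet.

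CRABP2 (ENSG00000143320, chr1:156699606-156705816, minus strand) encodes the protein that carries retinoic acid to its receptors in the nucleus, and it was among the most abundant transcripts of the set. CRABP2 had 301.4, 308.8 and 288.2 TPM in treated LC-2/ad cells and 391.6, 406.0 and 427.6 TPM in parent LC-2/ad cells. All treated libraries were lower, with a log2 fold change of -0.45 ± 0.04. In TPC-1 it had 43.1, 38.15 and 44.9 TPM in treated and 51.58, 47.25 and 44.1 TPM in parent cells. The TPC-1 groups overlapped, with a log2 fold change of -0.18 ± 0.09 (-0.12 ± 0.09 without parent library 1).

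The 3 receptors bind the same ligand and differ in where they are expressed. RARA (ENSG00000131759, chr17:40309192-40357643, plus strand), a receptor expressed in most tissues, had 37.67, 39.47 and 40.67 TPM in treated and 41.39, 43.83 and 43.57 TPM in parent LC-2/ad cells. All treated libraries were lower, by little: the log2 fold change was -0.13 ± 0.05, -0.05 with mitochondrial transcripts removed before scaling, and -0.22 with median-of-ratios scaling. In TPC-1, RARA had 22.78, 20.32 and 18.82 TPM in treated and 25.9, 26.59 and 27.23 TPM in parent cells. The treated libraries were again all lower, with a log2 fold change of -0.35 ± 0.09 (-0.37 ± 0.10 without parent library 1). Without treated library 1 it was -0.42 ± 0.08.

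RARG (ENSG00000172819, chr12:53210567-53232980, minus strand), the receptor best known from skin and other epithelia, had 59.0, 60.13 and 57.73 TPM in treated and 47.75, 51.91 and 48.2 TPM in parent LC-2/ad cells. All treated libraries were higher, by 0.25 ± 0.05 on the log2 scale. In TPC-1 it had 11.21, 9.324 and 9.519 TPM in treated and 11.76, 13.89 and 12.28 TPM in parent cells. There the treated libraries were all lower, with a log2 fold change of -0.31 ± 0.11 (-0.36 ± 0.13 without parent library 1).

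RARB (ENSG00000077092, chr3:25174332-25597932, plus strand), a receptor gene whose transcription is itself driven by retinoic acid, had 2.798, 2.487 and 2.868 TPM in treated and 1.126, 1.351 and 1.136 TPM in parent LC-2/ad cells. All treated libraries were higher, the ratio of means was 2.26, and the log2 fold change was 0.75 ± 0.14 (1.11 with a pseudocount of 0.1). In TPC-1 it stayed below 1 TPM, with 0.543, 0.305 and 0.238 TPM in treated and 0.228, 0.302 and 0.118 TPM in parent cells, and the groups overlapped. The RARB values are uncertain, because its exons overlap those of TOP2B on the opposite strand and the sources used here do not say whether the libraries kept strand. TOP2B, which encodes a DNA topoisomerase, had 32.97, 34.38 and 28.89 TPM in treated and 28.53, 31.93 and 32.38 TPM in parent LC-2/ad cells. In TPC-1 it had 79.25, 67.45 and 71.48 TPM in treated and 83.85, 74.24 and 82.69 TPM in parent cells. The TOP2B groups overlapped in both lines. What TOP2B reads add to the RARB values was not tested. The CYP26A1 window shown above with that of RARB belongs to a gene that stayed near 0 in both lines.

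Summed, the receptors gave 100.9 ± 1.34 TPM in treated and 93.4 ± 3.44 TPM in parent LC-2/ad cells, and 31.0 ± 3.12 TPM in treated and 39.4 ± 1.46 TPM in parent TPC-1 cells (SD, n = 3 each). RARG made up 58.4% ± 1.23 of that sum in treated and 52.8% ± 0.80 in parent LC-2/ad cells, and RARA 38.9% ± 1.16 in treated and 46.0% ± 0.88 in parent LC-2/ad cells. In TPC-1 the RARA share (66.6% ± 1.12 in treated and 67.4% ± 1.93 in parent cells) and the RARG share (32.3% ± 1.10 in treated and 32.0% ± 1.75 in parent cells) differed by less than the spread of the libraries. RARB was the smallest part in every library, at 2.69% ± 0.22 in treated and 1.29% ± 0.09 in parent LC-2/ad cells, and 1.14% ± 0.38 in treated and 0.546% ± 0.23 in parent TPC-1 cells. RARG thus led the sum in LC-2/ad and RARA in TPC-1.

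The hydroxylases that clear retinoic acid were at or near the floor of detection except in 1 case. CYP26A1 (ENSG00000095596, chr10:93073475-93077890, plus strand), the classical retinoic acid-induced hydroxylase, had 0.178, 0.0767 and 0.0767 TPM in treated and 0.0906, 0.0957 and 0.0939 TPM in parent LC-2/ad cells. In TPC-1 it had 0.179, 0.112 and 0 TPM in treated and 0.110, 0.0489 and 0 TPM in parent cells. The groups overlapped in both lines, at levels too low to be fitted. CYP26B1 (ENSG00000003137, chr2:72129238-72148038, minus strand) had 0.462, 0.230 and 0.211 TPM in treated and 0.185, 0.402 and 0.230 TPM in parent LC-2/ad cells. It was readily seen in TPC-1, at 11.94, 9.959 and 9.42 TPM in treated and 10.09, 7.923 and 10.85 TPM in parent cells. The TPC-1 groups overlapped, with a log2 fold change of 0.11 ± 0.14 (0.15 ± 0.16 without parent library 1).

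**Figure D3:**
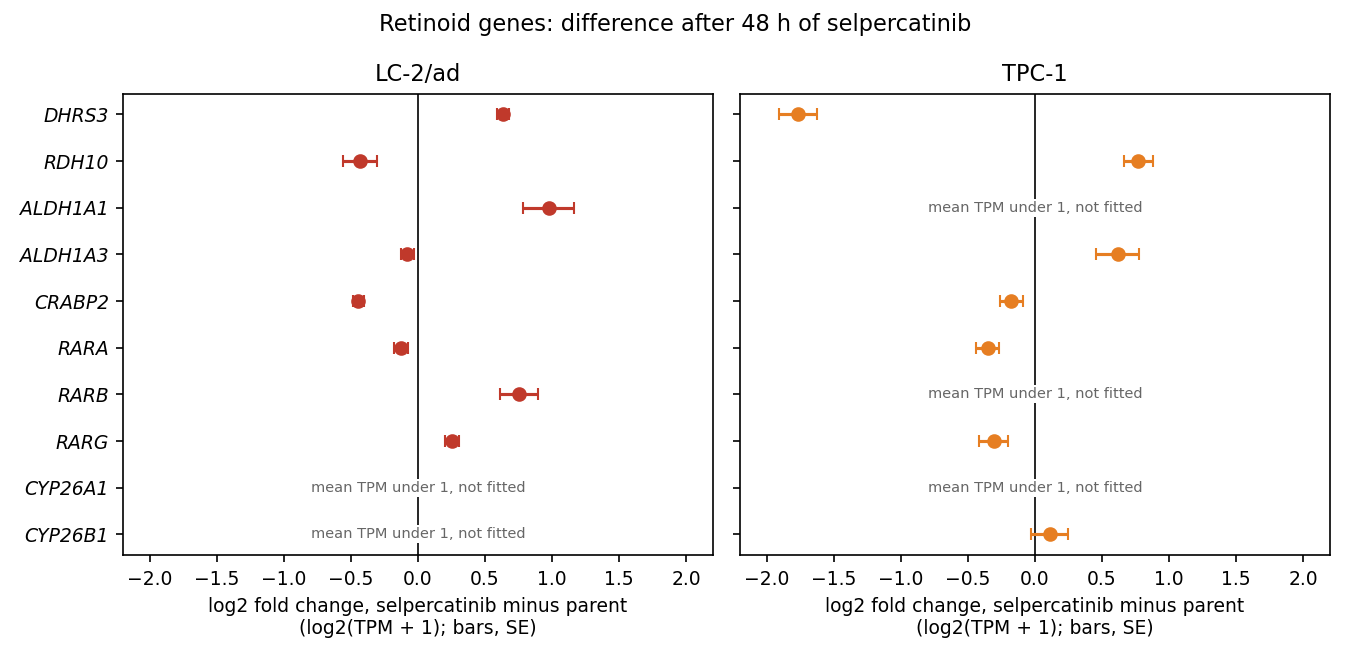
Log2 fold change of TPM + 1, selpercatinib minus parent, with its SE, for each of the 10 genes in LC-2/ad (left) and TPC-1 (right); genes with a mean below 1 TPM in a line were not fitted. In LC-2/ad DHRS3 is at 0.63 and RDH10 at -0.43, and in TPC-1 DHRS3 is at -1.77 and RDH10 at 0.77.

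Counted over the genes with a mean of at least 1 TPM, 6 of 8 were past a limma adjusted p of 0.05 in LC-2/ad, 4 higher and 2 lower, in a line where 55.0% of all 14118 genes tested were past it (30.6% higher and 24.4% lower). Over all genes that split moves with the scaling: 4319 genes were higher and 3451 lower as deposited, 3442 and 4318 with median-of-ratios scaling, and 5216 and 2833 with mitochondrial transcripts removed. In 7 of the 8 the groups did not overlap, 4 with treated higher and 3 with treated lower, which held for 62.8% of all genes tested (35.3% higher and 27.6% lower). In TPC-1 the count was 2 of 7, RDH10 higher and DHRS3 lower, where 4.96% of 12825 genes were past the threshold (3.75% higher and 1.21% lower). Those were 481 genes higher and 155 lower, or 420 and 254 with median-of-ratios scaling. In 5 of the 7 the TPC-1 groups did not overlap, 2 with treated higher and 3 with treated lower, beside 25.8% of all genes tested there (16.6% higher and 9.23% lower). The median log2 fold change of the fitted genes was 0.09 in LC-2/ad, beside 0.07 over all genes tested, and -0.18 in TPC-1, beside 0.05. The LC-2/ad count includes RDH10, which left it without parent library 2, treated library 1 or treated library 3, and it was 8 of 8 with median-of-ratios scaling. ALDH1A1 is among the higher genes in both LC-2/ad counts and enters the median, but it reached the minimum mean only through its treated libraries. At a minimum of 5 TPM, which leaves out ALDH1A1 and RARB, 2 of 6 were higher and 2 lower (66.7%, beside 62.4% of all genes). The TPC-1 count was 3 without parent library 1 or treated library 1, with median-of-ratios scaling, with mitochondrial transcripts removed, with a minimum of 5 TPM and with the replicate number as a block. Since the genes were picked with this contrast known, nothing is read from these counts. No fitted gene changed sign with median-of-ratios scaling or with mitochondrial transcripts removed.

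Set against each other, the responses of the lines were furthest apart for DHRS3. The TPC-1 log2 fold change minus the LC-2/ad log2 fold change, from a fit of all 12 libraries, was -2.40 ± 0.12 for DHRS3, 1.20 ± 0.18 for RDH10, 0.70 ± 0.19 for ALDH1A3 and -0.56 ± 0.11 for RARG. It was 0.27 ± 0.10 for CRABP2 and -0.23 ± 0.10 for RARA. For DHRS3 it was -2.86 with a pseudocount of 0.1 and -1.58 with 5. With single libraries left out it ran from -2.48 to -2.33 for DHRS3 and from 1.11 to 1.34 for RDH10. DHRS3, RDH10 and RARG are the genes whose groups were separated in opposite directions in the lines. Over all 11996 genes fitted in both lines, 36.6% were past the adjusted threshold for this difference (22.2% higher and 14.4% lower), and 5 of the 6 fitted here were, 3 higher and 2 lower. CRABP2 is 1 of the 5, and it left the count in 9 of the 12 fits with a single library left out (0.22 to 0.34 over the 12), with mitochondrial transcripts removed (0.18), with a pseudocount of 0.1, with no filter, with no variance trend and with the replicate number as a block. The counts over all genes were 2660 higher and 1733 lower, or 2066 and 2302 with mitochondrial transcripts removed.

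Beyond these genes, 64 others of the retinoid pathway were listed by their role in 4 groups, with earlier results of these data known. Of the 64, 63 had a row (RXRB was not analysed here). Their counts and p-values come from the fits over all genes and are no independent test of the pathway. In LC-2/ad 39 reached a mean of 1 TPM, and 18 of the 39 rose and 9 fell with treatment (27 of 39, 69.2%, beside 55.0% of all genes tested). With median-of-ratios scaling 12 of 38 were higher and 9 lower (55.3%, beside 55.0% of all genes), and without treated library 3 the count was 18 of 38 (47.4%, beside 50.5%), close to the share of all genes in both. Of the 18 that rose, BCO1 and HOXB4 reached the minimum mean only through their treated libraries, as did RDH5 and PRAME among those that did not pass, and without these genes 16 of 35 rose and 9 fell. The median log2 fold change of the 39 was 0.31, against 0.07 over all genes tested. That median includes BCO1 (1.11), HOXB4 (0.85), RDH5 (0.67) and PRAME (0.33), which all lay above it, so the filter raised it. In TPC-1 31 were tested, of which 2 rose and 2 fell (12.9%, beside 4.96% of all genes tested), with a median of 0.08 against 0.05. Without parent library 3, or without treated library 2, 2 of these 4 calls remained. The plot of the other pathway genes shows both lines.

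**Figure D4:**
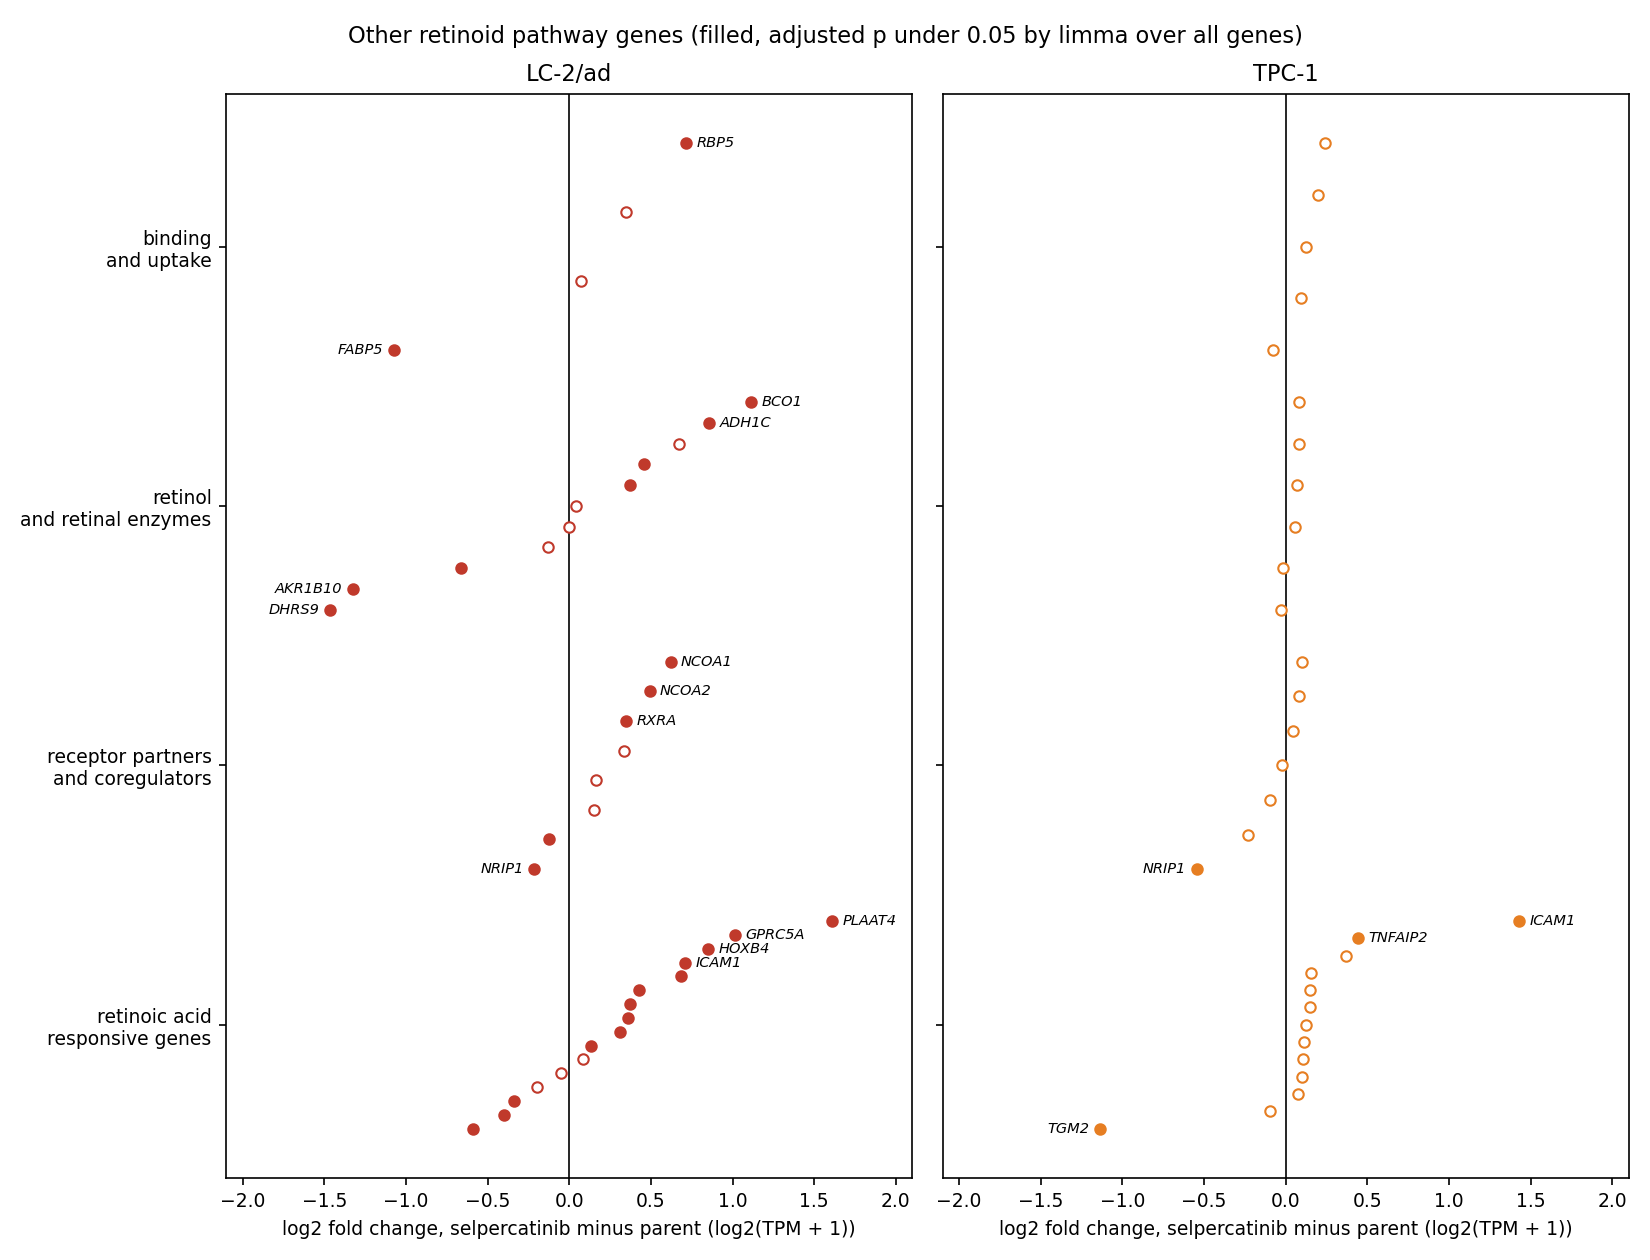
Log2 fold change of TPM + 1, selpercatinib minus parent, for the tested genes of 4 retinoid pathway lists in LC-2/ad (left, 39 genes) and TPC-1 (right, 31 genes); filled points passed a limma adjusted p of 0.05 over all genes. In LC-2/ad 18 rose and 9 fell, from PLAAT4 at 1.61 to DHRS9 at -1.46; in TPC-1 2 rose and 2 fell, with ICAM1 at 1.43 and TGM2 at -1.14.

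Of the genes for binding and uptake, 1 of 4 tested rose and 1 fell in LC-2/ad. That share was below the 55.0% of all genes tested there that passed. FABP5, a fatty acid-binding protein that also carries retinoic acid, had 7.688, 6.284 and 6.922 TPM in treated and 15.64, 13.92 and 17.8 TPM in parent LC-2/ad cells (log2 fold change -1.07 ± 0.11, limma adjusted p = 0.00012). FABP5 has processed pseudogenes, and how reads were shared with them is not known, so its level is uncertain. The ratio of CRABP2 to FABP5 was 39.2 to 49.1 in treated and 24.0 to 29.2 in parent LC-2/ad cells, while FABP5 was the more abundant of the pair in every TPC-1 library. RBP5, a cellular retinol-binding protein, averaged 3.02 ± 0.41 TPM in treated and 1.47 ± 0.45 TPM in parent LC-2/ad cells (0.72 ± 0.18, limma adjusted p = 0.0108). The retinol uptake receptor STRA6 averaged 4.55 ± 1.20 TPM in treated and 4.19 ± 0.06 TPM in parent LC-2/ad cells, with groups that overlapped. None of the 5 binding and uptake genes tested in TPC-1 passed by limma (beside 4.96% of all genes tested there), and 1 had an unadjusted p under 0.05.

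Of the other enzymes of retinol and retinaldehyde, 4 of 11 tested rose and 3 fell in LC-2/ad (63.6%, beside 55.0% of all genes tested). DHRS9, a retinol dehydrogenase of the same short-chain family as DHRS3 and RDH10, fell to 48.3 ± 3.00 TPM in treated cells, against 135.0 ± 7.06 TPM in parent LC-2/ad cells (log2 fold change -1.46 ± 0.06, limma adjusted p = 1.42e-06). AKR1B10, an aldo-keto reductase that turns retinaldehyde into retinol, fell to 4.19 ± 0.19 TPM, against 12.02 ± 0.83 TPM in parent cells (-1.32 ± 0.09, limma adjusted p = 1.49e-05). BCO1, which cleaves beta-carotene into retinaldehyde, had 2.66 ± 0.19 TPM in treated and 0.697 ± 0.16 TPM in parent cells (1.11 ± 0.16). ADH1C, an alcohol dehydrogenase that can oxidise retinol, rose to 44.0 ± 3.59 TPM, against 23.8 ± 1.46 TPM in parent cells (0.86 ± 0.08, limma adjusted p = 5.33e-05). AKR1B10 and ADH1C have close paralogs, and how reads were shared with them is not known. BCO1 and RDH5 reached the minimum mean only through their treated libraries, and without them 3 of 9 rose and 3 fell (66.7%). None of the 6 enzymes tested in TPC-1 passed by limma (beside 4.96% of all genes tested there), and 0 had an unadjusted p under 0.05.

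Of the receptor partners and coregulators, 3 of 8 tested rose and 2 fell in LC-2/ad (62.5%, beside 55.0% of all genes tested). RXRA, the retinoid X receptor that pairs with the retinoic acid receptors, rose to 67.7 ± 3.10 TPM in treated cells, against 52.9 ± 1.36 TPM in parent cells (log2 fold change 0.35 ± 0.05, limma adjusted p = 0.000692). The ratio of RXRA to the summed receptors was 0.671 ± 0.040 in treated and 0.567 ± 0.034 in parent LC-2/ad cells, and 1.16 ± 0.067 in treated and 0.930 ± 0.11 in parent TPC-1 cells. The coactivators NCOA1 (0.62 ± 0.07, limma adjusted p = 0.00022) and NCOA2 (0.49 ± 0.08, limma adjusted p = 0.00169) rose as well. NRIP1, a retinoic acid-induced corepressor, fell in both lines. In LC-2/ad it averaged 20.7 TPM in treated and 24.2 TPM in parent cells (-0.21 ± 0.06, limma adjusted p = 0.0215). That call was lost with mitochondrial transcripts removed (-0.14), and without parent library 2 (-0.21), parent library 3 (-0.22), treated library 1 (-0.19) or treated library 3 (-0.19). In TPC-1 NRIP1 averaged 11.1 ± 1.07 TPM in treated and 16.7 ± 0.94 TPM in parent cells (-0.54 ± 0.10, limma adjusted p = 0.0171). The TPC-1 call was lost with no filter on low genes and without parent library 3 (-0.53) or treated library 2 (-0.48). NRIP1 was the only one of 7 tested in that list to pass in TPC-1 (14.3%, beside 4.96% of all genes tested there).

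Of the genes known to respond to retinoic acid, 10 of 16 tested rose and 3 fell in LC-2/ad (81.2%, beside 55.0% of all genes tested). Without HOXB4, 9 of 15 rose and 3 fell (80.0%). Many genes of this list also answer to other signals, among them interferon for PLAAT4 and NF-kappaB for ICAM1 and TNFAIP2. PLAAT4 (also called RARRES3), a phospholipase induced by the retinoid tazarotene, had 1638, 1660 and 1574 TPM in treated and 509.8, 536.9 and 547.2 TPM in parent LC-2/ad cells (log2 fold change 1.61 ± 0.04, limma adjusted p = 2.04e-07). GPRC5A, an orphan receptor abundant in lung epithelium, had 1891, 1875 and 1836 TPM in treated and 915.8, 937.3 and 922.4 TPM in parent LC-2/ad cells (1.01 ± 0.02, limma adjusted p = 2.04e-07). In treated and in parent LC-2/ad cells alike, PLAAT4 and GPRC5A stood above every one of the 10 genes in level. HOXB4, a homeobox factor, had 1.408, 1.712 and 1.65 TPM in treated and 0.382, 0.451 and 0.473 TPM in parent LC-2/ad cells (0.85 ± 0.17). HOXB4 reached the minimum mean only through its treated libraries, so no p is given, and it is listed at 0 in every TPC-1 library. ICAM1, an adhesion receptor, averaged 155.2 ± 12.6 TPM in treated and 94.3 ± 0.71 TPM in parent LC-2/ad cells (0.71 ± 0.06, limma adjusted p = 3.84e-05).

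In TPC-1 2 of 13 genes of that list rose and 1 fell (23.1%, beside 4.96% of all genes tested there). ICAM1 had 10.18, 9.46 and 10.25 TPM in treated and 3.217, 3.106 and 2.87 TPM in parent TPC-1 cells (log2 fold change 1.43 ± 0.11, limma adjusted p = 0.000388). TNFAIP2 had 194.1, 184.1 and 176.8 TPM in treated and 156.2, 121.2 and 132.3 TPM in parent TPC-1 cells (0.44 ± 0.09, limma adjusted p = 0.0253). The TNFAIP2 call was lost with no filter, with no variance trend, and without parent library 2 (0.36), parent library 3 (0.42), treated library 1 (0.41) or treated library 2 (0.45). TGM2, a transglutaminase long used as a read-out of retinoic acid, had 14.99, 17.17 and 14.99 TPM in treated and 35.33, 38.91 and 33.12 TPM in parent TPC-1 cells (-1.14 ± 0.09, limma adjusted p = 0.000388). TGM2 also fell in LC-2/ad, to 56.2 ± 1.37 TPM in treated cells, against 85.1 ± 5.14 TPM in parent cells (-0.59 ± 0.05). The LC-2/ad values of TGM2 were picked after they were seen, so no p is given for them. Genes of the list that passed thus went both ways in each line. Without TPC-1 parent library 1 the same 4 pathway genes passed in that line, at 1.46 for ICAM1, 0.54 for TNFAIP2, -1.15 for TGM2 and -0.52 for NRIP1.

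The difference between the responses of the lines was tested for 29 of these pathway genes, and 15 passed (51.7%, beside 36.6% of all genes fitted), 6 with the higher response in TPC-1 and 9 with the lower. With single libraries left out 11 to 16 of the 29 passed, the lowest count among others without LC-2/ad parent library 3 (37.9%, beside 32.6% of all genes). PLAAT4 had 0.13 ± 0.10 in TPC-1 and 1.61 ± 0.04 in LC-2/ad (difference -1.49 ± 0.10, limma adjusted p = 3.98e-07). FABP5 had 0.13 ± 0.05 in TPC-1 and -1.07 ± 0.11 in LC-2/ad (difference 1.20 ± 0.12, limma adjusted p = 8.2e-06). BCO1 had 0.07 ± 0.13 in TPC-1 and 1.11 ± 0.16 in LC-2/ad (difference -1.04 ± 0.19). The BCO1 difference depended on the pseudocount, at -1.73 with 0.1 and -0.37 with 5, and BCO1 entered the fit only through its treated LC-2/ad libraries, so no p is given for it. By list, 1 of 3 genes for binding and uptake passed (33.3%), 2 of 6 enzymes (33.3%) and 7 of 13 responsive genes (53.8%). Of the receptor partners and coregulators 5 of 7 had the lower response in TPC-1 and 0 the higher (71.4%, beside 36.6% of all genes fitted). Among the 5 was RXRA, at -0.02 ± 0.08 in TPC-1 and 0.35 ± 0.05 in LC-2/ad. NCOA2 and NRIP1, also among the 5, lost the call in 6 and 9 of the 12 fits with a single library left out.

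The genes most like the leading gene of each line were sought among the 11996 genes fitted in both lines, by the root mean square difference of log2(TPM + 1) after centring each line, over 12 libraries. At the pseudocount of 1 used throughout, the leading genes by the size of the log2 fold change were ALDH1A1 in LC-2/ad and DHRS3 in TPC-1, but with a pseudocount of 5 ALDH1A1 (0.37) came below DHRS3 (0.61) in LC-2/ad. Nearest to ALDH1A1, which was low and nearly flat in TPC-1, were PID1 and BDH2 at 0.10 and MMP2 at 0.12. MMP2 averaged 2.44 TPM in treated and 0.918 TPM in parent LC-2/ad cells. Like ALDH1A1, MMP2 reached the minimum mean in that line only through its treated libraries. BDH2 averaged 30.1 TPM in treated and 14.2 TPM in parent LC-2/ad cells, and 25.6 TPM in treated and 26.3 TPM in parent TPC-1 cells. Nearest to DHRS3 were SOX9 at 0.34, MLPH at 0.36 and CDH6 at 0.36. SOX9 averaged 3.05 TPM in treated and 7.64 TPM in parent TPC-1 cells, and 12.1 TPM in both groups of LC-2/ad.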

How the data were processed

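RNA-seq of total RNA from 12 libraries, 3 in each of 4 groups, was analysed from the authors' deposited TPM per gene, with a separate table for each cell line. Tools listed in the submitters' processing notes are Salmon and bcl2fastq 2.20.0, with GRCh38 as the build and no roles given. The annotation, any filter and strandedness are not given in the sources used here. TPM keep no read count, so the depth is unknown, no interval for counting error is given, and precision is the spread between libraries. Of 37247 gene IDs 34436 (92.5%) had a symbol.

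From these values log2(TPM + 1) was compared within each line with limma 3.58.1 in R 4.3.3 (variance trend, two-sided, Benjamini-Hochberg over all genes with a mean of at least 1 TPM), and the responses of the lines in a fit of all 12 libraries. The fits were first tested on simulated data. Groups came from the sample labels. The 10 genes, the pathway and marker lists and the tests were chosen with earlier results of these data known, so the 10 genes carry no p-values. The p-values of pathway genes are those of the fits over all genes and are no independent test of the lists. Besides the 10, up to 4 called genes per pathway list and line, 3 for the difference of the lines and 3 nearest genes per line were named, by largest change or smallest distance. TGM2 in LC-2/ad, STRA6 and the response of RXRA are named outside that rule, chosen after their values were seen. Coordinates are GENCODE 29 and start windows RefSeq (GRCh38.p14). Alternatives were pseudocounts of 0.1 and 5, no filter or a minimum of 5 TPM, no variance trend, scaling by the median of ratios, leaving out the 13 mitochondrial genes, a replicate block, and leaving out each library. Replicate numbers are not said to mark a shared culture, and deviations of same-numbered libraries correlated at -0.048 to 0.054, so the block is an alternative. Tables were handled in Python 3.11.15 with pandas 2.3.3 and numpy 2.4.6 and in R with data.table (version 1.17.8), and plots used matplotlib 3.10.9.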

Additional observations from a re-analysis of the deposited data

Results flagged for a closer look

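The responses of the lines differed for the following genes, as the TPC-1 log2 fold change minus the LC-2/ad log2 fold change. Among the genes of the 4 pathway lists that the text names, the difference passed the limma test (adjusted p under 0.05) with a higher response in TPC-1 for FABP5 (1.20), ICAM1 (0.72) and TNFAIP2 (0.31). ICAM1 rose in both lines, and its difference did not pass with a pseudocount of 5 (0.21). The response was lower in TPC-1 for PLAAT4 (-1.49), BCO1 (-1.04, in the fit only through its treated LC-2/ad libraries), GPRC5A (-0.90), NCOA1 (-0.71), TGM2 (-0.55), NCOA2 (-0.41), RXRA (-0.37) and NRIP1 (-0.33). TGM2 and NRIP1 fell in both lines. Leaving out single libraries ended the call in 8 of 12 fits for TNFAIP2 (range 0.23 to 0.41), all but those without LC-2/ad treated library 3 or parent library 1 or TPC-1 treated library 3 or parent library 1. It ended the call in 9 of 12 fits for NRIP1 (range -0.40 to -0.27), all but those without LC-2/ad treated library 3, TPC-1 treated library 1 or TPC-1 parent library 2. For NCOA2 6 of 12 fits ended it (range -0.49 to -0.37), those without LC-2/ad treated library 1 or 2 or parent library 1 or 3, and without TPC-1 treated library 2 or parent library 3. The TNFAIP2 difference also lost its call with no filter, with mitochondrial transcripts removed (0.22) and with no variance trend. That of NRIP1 was also lost with a pseudocount of 5 (-0.24).

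For 3 of the 10 genes every treated library lay on one side of the parent libraries in TPC-1 and on the other side in LC-2/ad. The differences were -2.40 for DHRS3, 1.20 for RDH10 and -0.56 for RARG. These genes were picked with the contrast known, so the fit over all genes is no independent test of them, and their differences are given as a description.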

How the results depend on the processing

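Of the values for single genes under all alternatives, 866 kept their direction and their side of the threshold, 67 lost the call, 11 gained one and 4 changed sign. The sign changes were all in TPC-1 values near 0: leaving out single libraries gave -0.093 to 0.024 for RXRA (above 0 in 3 fits, at 0.008 without parent library 1, 0.016 without parent library 3 and 0.024 without treated library 3) and -0.01 to 0.20 for CYP26B1 (-0.009 without parent library 2). The number of genes called in TPC-1 was 636 as reported, 272 with no filter on low genes, 356 with no variance trend, and 292 to 815 with single libraries left out (337 and 292 when parent library 2 or 3 was dropped, 335 and 339 when treated library 1 or 2 was). The number of retinoid pathway genes called in TPC-1 was 4 as reported, 2 with no filter, and 2 to 4 with single libraries left out (2 without parent library 3 or treated library 2). With no filter more genes share the adjustment, and with a library left out fewer libraries enter the fit, though the count rose to 815 without parent library 1. The causes of these changes in the counts were not tested. In LC-2/ad 6825 to 8049 genes and 18 to 27 pathway genes were called over all 14 alternatives, and for the difference of the lines 3864 to 4902 genes and 11 to 17 pathway genes over 20. Of the 10 genes, 4 to 8 were called in LC-2/ad (4 at a minimum of 5 TPM, 8 with median-of-ratios scaling) 2 to 3 in TPC-1, and 4 to 6 for the difference of the lines.

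No source says that the replicate numbers pair the libraries. With the replicate number as a block, 7357 genes were called in LC-2/ad, 542 in TPC-1 and 4227 for the difference of the lines. Those were 52.1%, 4.23% and 35.2% of the genes tested. Of the retinoid pathway genes the block called 26 of 39 (66.7%), 4 of 31 (12.9%) and 16 of 29 (55.2%), in the same order. Of the 10 genes it called 6 of 8 tested (75.0%), 3 of 7 (42.9%) and 4 of 6 (66.7%). Without the block the counts of these 10 were 6 of 8, 2 of 7 and 5 of 6, beside 55.0%, 4.96% and 36.6% of all genes.

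TPM are shares of a library's total, so a difference in TPM can follow from other transcripts. Their low end limits CYP26A1 in both lines, CYP26B1 in LC-2/ad and ALDH1A1 and RARB in TPC-1, where a difference was not detectable.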

Other observations

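Of the 63 other pathway genes with a row, 19 stayed below 1 TPM in all 12 libraries. They include the retinoic acid hydroxylase CYP26C1 and the binding proteins CRABP1, RBP2 and RBP4, and 4 genes (RXRG, HOXB1, CDX1 and CEBPE) were listed at 0 throughout. ALDH1A2, another retinaldehyde dehydrogenase, had 0.832, 2.21 and 0.799 TPM in treated and 0.0469, 1.15 and 0.186 TPM in parent LC-2/ad cells. It had 1.83, 0.886 and 1.17 TPM in treated and 1.23, 0.345 and 0.322 TPM in parent TPC-1 cells. The ALDH1A2 groups overlapped in both lines, below the minimum mean for a fit. LRAT, which esterifies retinol for storage, averaged 0.630 ± 0.21 TPM in treated and 0.610 ± 0.02 TPM in parent LC-2/ad cells, and 3.77 ± 1.01 TPM in treated and 3.41 ± 0.22 TPM in parent TPC-1 cells (SD, n = 3 each). RDH11, a retinaldehyde reductase, was lower in LC-2/ad at 38.3 ± 1.503 TPM in treated cells, against 61.2 ± 1.94 TPM in parent cells (log2 fold change -0.66 ± 0.05). In TPC-1 it averaged 41.8 ± 3.06 TPM in treated and 42.2 ± 1.18 TPM in parent cells (-0.02 ± 0.07). The genes in this paragraph were chosen after their values were seen, so no p is given for them.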
